A study of Mus musculus with 18 samples.

Results

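Tumoroid 648T2 was the 1 bronchiolar tumoroid of a mouse model of EGFR-driven lung cancer, and it was compared with 6 tumoroids here called alveolar for their high Sftpc, the surfactant protein C gene. The genes described are those for which the log2 CPM (CPM being the share of the library's counts, scaled to libraries of equal size by TMM) of 648T2 lay outside the range of the 6. Of 46603 genes in the tables, 17678 passed a filter on low counts, and 6534 of these (36.96%) lay outside the range, 3509 above all 6 (19.8% of genes) and 3025 below all 6 (17.1%). By a gap of at least 2-fold to the nearest of the 6, 800 genes lay above (4.53%) and 582 below (3.29%). With 1 tumoroid on one side there was no replicate to test, so the values below describe these 7 libraries and carry no p-value, and the genes' distance from the 6 was what chose them.

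All 7 tumoroids carried human EGFR with the T790M and L858R mutations, knocked into Col1a1 behind a lox-stop-lox cassette and a CAG promoter, and switched on in sorted donor lung cells by Adeno-Cre in culture. For 648T2 the labels give the origin as bronchiolar organoids of Sca1-positive bronchioalveolar stem cells (BASCs), which give rise to airway and alveolar cells. The reference held 3 tumoroids whose labelled origin was AT2 cells (654T1, 655T1 and 655T2), the surfactant-making cells of the alveolus. It also held 3 of BASC organoids labelled mixed (646T1, 648T1 and 648T3). Transformed organoids were instilled in the trachea of nude mice, which are immunocompromised through a Foxn1 mutation. The tumors were dissociated and grown again in Matrigel with neonatal lung mesenchymal support cells before RNA was taken. The bronchiolar and alveolar BASC organoids had been picked by hand by their shape, and 648T2, 648T1 and 648T3 share a number in their titles. No label says which tumoroids came from the same mouse, so the range of the 6 may hold technical as well as biological spread. The human transgene is not in the mouse annotation and was not analysed here.

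The libraries held 15327265 to 23209041 expected counts, the lowest in 655T2 and the highest in 648T2. Across the 17678 genes, which are not independent and share each library's depth, the log2 CPM of 648T2 correlated with that of the 6 at r = 0.869 to 0.914 (Pearson), nearest to 648T1 and furthest from 655T2. Among the 6 themselves r ran from 0.868 to 0.969, so the 2 ranges overlapped. Tumoroid 655T2 itself stood apart: against the other 5 of the reference it lay outside the range for 53.08% of genes and by at least 2-fold above for 857 and below for 832. The other 5 each lay outside the range of their fellows for 19.55% to 36.38% of genes. Without 655T2, 648T2 was above by at least 2-fold for 935 genes and below for 800.

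The conducting airway is lined by club cells, which secrete protective proteins, by ciliated cells, and in its upper part by basal cells, which anchor the sheet and renew it. Basal and hillock cells, the stratified patches of the airway, carry keratins and desmosomes of the kind that hold skin together. The transcription factor SOX2 marks airway identity, whereas AT2 cells make surfactant and lipid for the alveolus.

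The tumoroid's label rests on its origin, and airway markers were high in 648T2 and near 0 in most of the 6. Scgb3a2, a secretory protein of club cells, was at 918.1 CPM in 648T2, with 0 as the lowest and the median of the 6 and 0.451 CPM as the highest. Krt14, a basal keratin (chr11:100203162-100207548, GRCm38), was at 1395 CPM against a lowest value of 0.063, a median of 0.776 and a highest of 7.93. Krt6a, a keratin of stressed and stratified epithelium (chr15:101689910-101694307), was at 942.4 CPM against 0, 0.223 and 8.85. For Sox2 (chr3:34650405-34652461), 648T2 was at 149.8 CPM and the 6 had a lowest value of 0.063, a median of 1.19 and a highest of 22.2. The highest of the 6 was 648T3 for Krt14 and 648T1 for the other 3, and no range reached 648T2. Krt6a and Krt6b are near copies between which reads were split by estimate, so the level of each is uncertain.

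The lineage lists put 648T2 on the airway side, with exceptions. Of 13 club cell genes 8 lay above all 6 and 0 below, and of 11 basal cell genes 9 lay above and 0 below. Krt5, the partner of Krt14 in basal cells, was at 142.5 CPM and at most 0.369 CPM in the 6. Of 14 AT2 genes 10 lay below and 0 above, and Sftpc was at 1668 CPM against 9418, 20560 and 65880 as the lowest, median and highest of the 6. Sftpc was thus 16.8-fold lower than the mean of the 6 but far from 0, and Sftpb, another surfactant gene, was at 4024 CPM, inside the range of 3578 to 16050. Napsa, an aspartic protease that processes surfactant protein, was 35.7-fold lower, at 6.29 CPM against 90.4 to 590.2. Ciliated cell genes were split: Foxj1, the regulator of motile cilia, was at 219.5 CPM against 1.08 to 17.2, but of the 8 measured genes of that list 4 lay above and 1 below, and Tppp3, a gene of ciliated cells, was lower than in all 6 at 2.22 against 4.60 to 16.9 CPM. Of 12 AT1 genes 3 lay above and 4 below, and Ager, the receptor RAGE of AT1 cells, was at 242.1 CPM against 528.3 to 3178. Of the 3 neuroendocrine genes measured, 0 lay outside the range.

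**Figure D1:**
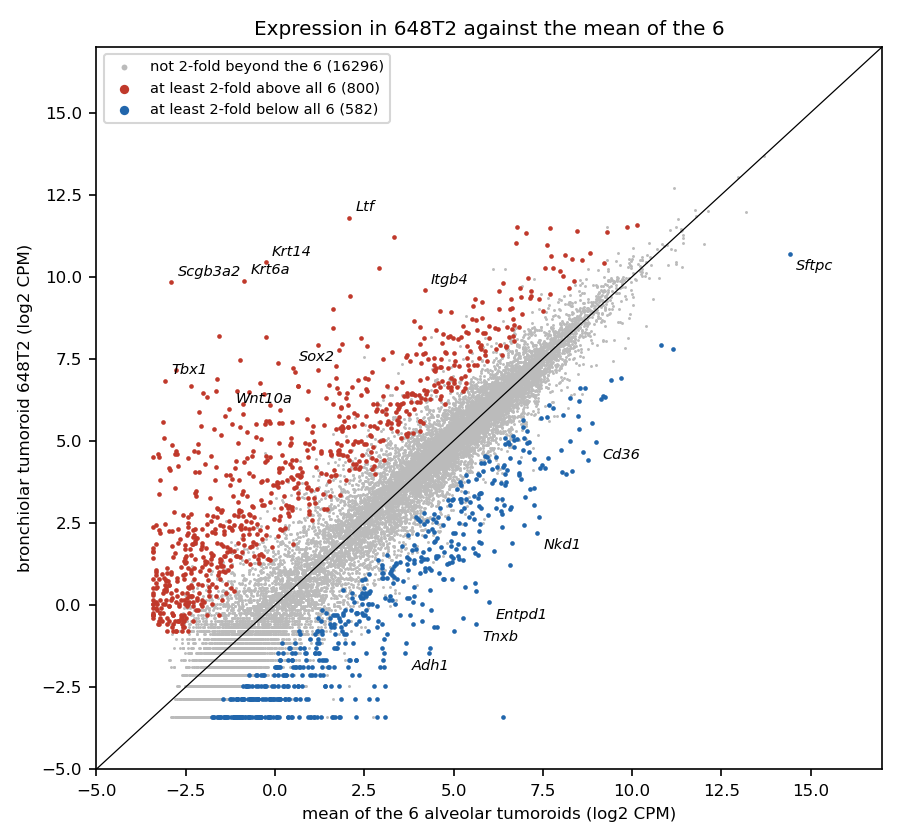
Log2 CPM of 648T2 (vertical) against the mean log2 CPM of the 6 alveolar tumoroids (horizontal), 1 point per gene, 17678 genes. Red points lie at least 2-fold above all 6 (800 genes) and blue points at least 2-fold below all 6 (582 genes); Scgb3a2, Krt6a, Krt14 and Ltf stand far above the line of equality and Sftpc, Cd36, Nkd1 and Tnxb below it.

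Signs of other cells were measured beside these. The support cell culture could give fibroblast RNA, and the 12 measured fibroblast markers summed to 2112 CPM in 648T2 against 613 to 11590 CPM in the 6, with 0 above and 1 below all 6. The 8 smooth muscle markers summed to 114.4 CPM against 83.8 to 396 CPM, with 1 above and 2 below all 6. The 6 measured endothelial markers summed to 20.4 CPM, below the 102 to 212 CPM of the 6, with 0 above and 2 below, 1 by 2-fold. Much of that sum was Esam, at 9.35 CPM against 35.4 to 179.5, and Pecam1 was at 0.443 CPM against 0.902 to 5.46. The 6 measured leukocyte markers summed to 26.6 CPM against 14.4 to 33.6, with 1 above and 1 below all 6. Ptprc, the pan-leukocyte marker, was at 0 against 0.188 to 2.27 CPM. Csf1r, of the same list, went the other way, at 9.39 CPM against 0.328 to 5.07. The endothelial list was thus the support list whose sum lay outside the range of the 6, and its part in the genes lower in 648T2 was not tested. In bulk RNA, fewer cells of a type and less RNA per cell cannot be told apart.

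Beyond the lineage markers, the genes furthest above the 6 were of mixed function, and several were close to undetected in every alveolar tumoroid. They included transcription regulators. Tbx1, a T-box transcription factor of pharyngeal and skin epithelium (chr16:18580979-18590671), was at 114.0 CPM and at most 0.097 CPM in the 6. Trim29, a TRIM protein of basal and squamous cells, was at 47.6 CPM and at most 0.049. These values leave the 6 at 3 counts or fewer per library, so no fold is given. Foxn1, the regulator of thymic epithelium and hair keratinocytes that is mutated in the nude hosts, was at 24.2 CPM against a lowest of 0, a median of 0.046 and a highest of 0.175. Bnc1, a zinc finger factor of basal keratinocytes, was at 25.5 CPM against at most 0.205. That none of these factors overlapped between 648T2 and the 6 follows from choosing the widest gaps. Over all genes 36.96% lay outside the range.

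Others act outside the cell or at its membrane. Olfm4, a secreted glycoprotein of intestinal stem cells and neutrophils, was at 294.4 CPM against 0.041, 0.161 and 1.48 (lowest, median, highest), 730-fold the mean of the 6. Ppbp, a CXC chemokine best known from platelets, was at 87.8 CPM against 0.048, 0.149 and 0.502, 454-fold the mean. Spink5, the inhibitor of skin kallikreins, was at 289.7 CPM against 0.328, 0.729 and 2.58, 311-fold the mean. All 6 were far lower than 648T2 for these 3 genes, which were chosen for their gap. Clca3b, of a family of chloride channel accessory proteins, was at 118.9 CPM against 0.048, 0.210 and 1.13. Vsnl1, a neuronal calcium sensor, was at 22.7 CPM and had 0 counts in all 6, which makes it at least 120-fold higher against the floor of 3 counts per library. Pglyrp3, a bactericidal protein that binds peptidoglycan, Mall, a membrane raft protein, and Igsf1, a membrane immunoglobulin-domain protein, were at 24.2, 29.0 and 14 CPM and at no more than 0.147 CPM in any of the 6.

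**Figure D2:**
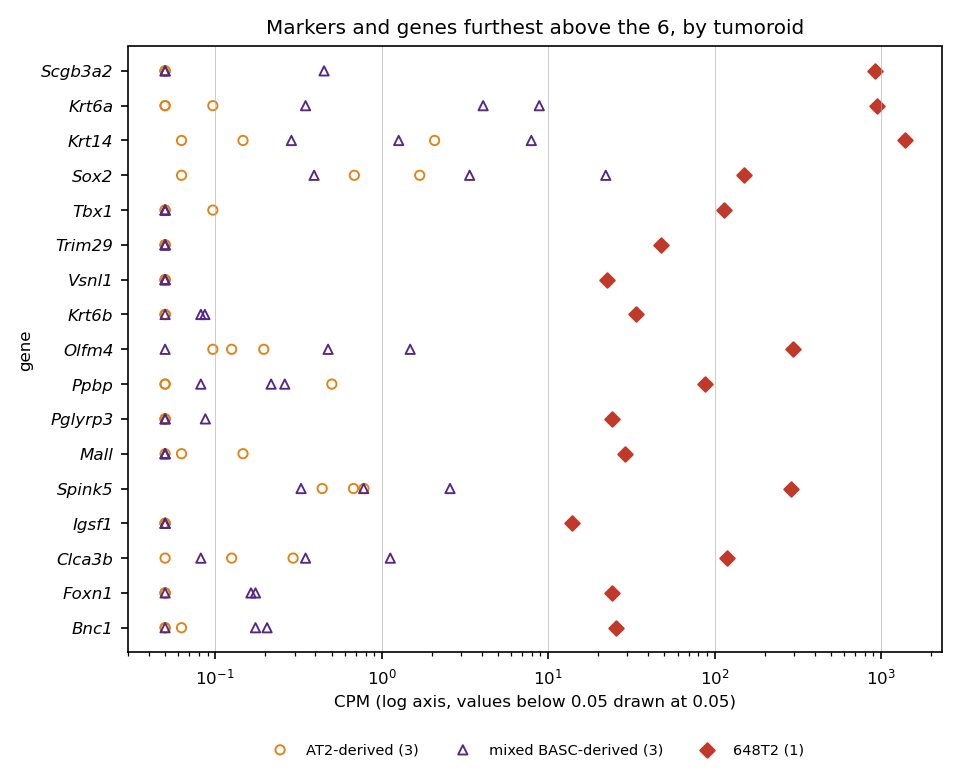
CPM (log axis, values below 0.05 drawn at 0.05) of the 4 markers and of genes with the widest gaps above the 6, for 648T2 (red diamonds), the 3 AT2-derived tumoroids (orange circles) and the 3 mixed BASC-derived tumoroids (purple triangles). For every gene drawn 648T2 stands to the right of all 6; for Sox2 the gap is narrowest, 149.8 against at most 22.2 CPM.

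The genes furthest below the 6 were of more mixed function. Tnxb, the matrix protein tenascin X (chr17:34670535-34719815), was at 0.576 CPM in 648T2 against 24.4, 40.4 and 139.6 CPM, 105-fold lower than the mean. Entpd1, the ectonucleotidase CD39 that degrades extracellular ATP, was at 0.974 CPM against 29.0, 52.6 and 180.5. Sgpp2, a sphingosine 1-phosphate phosphatase, was at 0.487 CPM against 8.98, 44.8 and 91.7. All 3 were chosen for their gap, and the 6 themselves spread widely. Limch1, an actin regulator, was 98.4-fold lower, at 0.266 CPM against 3.85 to 44.9. Igf2, the fetal growth factor, was at 3.59 CPM against 50.3, 74.3 and 512.4, the highest in 646T1. Adh1, an alcohol and retinol dehydrogenase, was at 0.266 CPM against 4.27, 15.1 and 26.2. Sfta2, a secreted surfactant-associated protein, was at 1.24 CPM against 17.3 to 98.6, and Phf24 had 0 counts against 1.69 to 49.6 CPM, at least 118.5-fold lower than the mean. The remaining genes of the 15 furthest below included Pbld2, Zfp385b, Filip1, Akr1c14 and the melanocyte antigen gene Mlana, each with 648T2 at no more than 1.64 CPM.

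**Figure D3:**
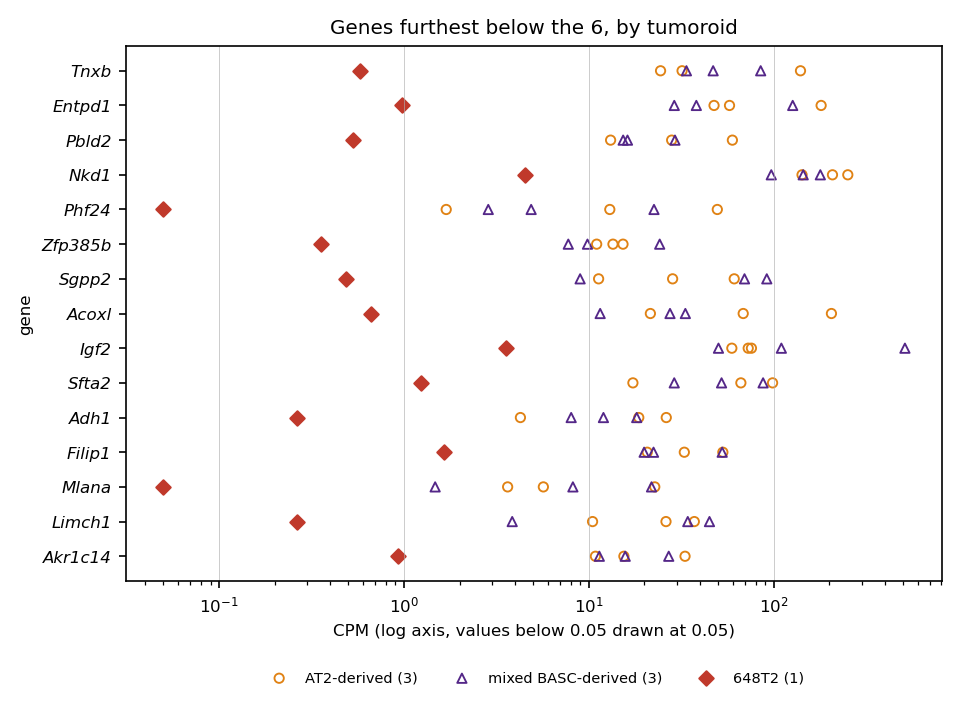
CPM (log axis, values below 0.05 drawn at 0.05) of the 15 genes with the widest gap below the 6, with the same symbols as in the plot of the genes furthest above. 648T2 (red diamonds) stands to the left of all 6 in each, for Tnxb at 0.576 against 24.4 to 139.6 CPM.

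The upstream sequences of these genes were searched for TGANTCA, where N is any base, on both strands. TGANTCA is looser than TGACTCA or TGAGTCA, the core motif of AP-1 factors, and also takes in TGAATCA and TGATTCA. The search ran from 250 bases before to 50 bases after the start of each gene in RefSeq (GRCm38.p6). A sequence was at hand for 529 of the 800 genes above, 409 of the 582 below and 12154 of all 17678. TGANTCA stood in 12.9% of the genes above by 2-fold (68 of 529). It stood in 6.11% of those below (25 of 409) and in 5.5% of all (668 of 12154). Of the other motifs searched, CATTGT, the core of SOX factors, stood in 7.94%, 9.05% and 7.46%, CAAGTG, a core of NKX2 factors, in 13.6%, 13% and 11.2%, and GGAATG, a core of TEAD factors, in 15.1%, 14.7% and 12.5%, so these 3 differed less between the sets. A match is a string of letters and not a bound site. The matches printed below for Ppbp (TGAATCA) and Clca3b (TGATTCA) are not the AP-1 core. Of 55 named genes at least 2-fold above with a sequence, 8 held TGANTCA in the 250 bases before the start. Of 23 named genes at least 2-fold below 1 did. These counts have no share of all genes beside them, as that share was taken over the longer stretch. Shown to print what such a match looks like, as the 250 bases before the start, 5′ to 3′ on the gene's strand with the match in capitals, are Ppbp (chr5:90768268-90768517, plus strand) and Clca3b (chr3:144849303-144849552, minus strand) from the genes furthest above. They are followed by Cldn4 (chr5:134946935-134947184, minus strand), Il1a (chr2:129309973-129310222, minus strand) and Mmp10 (chr9:7502092-7502341, plus strand), described below, and Tnxb (chr17:34670285-34670534, plus strand), the 1 gene with a match among the named genes at least 2-fold below.
Ppbp: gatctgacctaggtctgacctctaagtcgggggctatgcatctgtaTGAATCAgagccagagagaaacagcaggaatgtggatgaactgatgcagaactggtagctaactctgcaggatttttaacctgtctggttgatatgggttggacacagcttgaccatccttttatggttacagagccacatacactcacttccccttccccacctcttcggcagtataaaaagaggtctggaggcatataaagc
Clca3b: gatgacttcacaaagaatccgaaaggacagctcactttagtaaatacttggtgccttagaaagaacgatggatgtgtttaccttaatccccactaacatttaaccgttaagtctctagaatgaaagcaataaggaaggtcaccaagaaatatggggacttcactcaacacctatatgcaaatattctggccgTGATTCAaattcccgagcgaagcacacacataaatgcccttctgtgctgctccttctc
Cldn4: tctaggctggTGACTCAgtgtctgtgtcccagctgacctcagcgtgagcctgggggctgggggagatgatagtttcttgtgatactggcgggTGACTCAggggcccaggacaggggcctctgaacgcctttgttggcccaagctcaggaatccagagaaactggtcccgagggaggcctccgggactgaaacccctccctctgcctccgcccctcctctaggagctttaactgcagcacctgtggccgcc
Il1a: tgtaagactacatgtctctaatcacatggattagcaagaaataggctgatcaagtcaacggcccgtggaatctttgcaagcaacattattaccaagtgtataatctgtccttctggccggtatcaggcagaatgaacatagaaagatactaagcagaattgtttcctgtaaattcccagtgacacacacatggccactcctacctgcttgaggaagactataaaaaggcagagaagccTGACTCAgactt
Mmp10: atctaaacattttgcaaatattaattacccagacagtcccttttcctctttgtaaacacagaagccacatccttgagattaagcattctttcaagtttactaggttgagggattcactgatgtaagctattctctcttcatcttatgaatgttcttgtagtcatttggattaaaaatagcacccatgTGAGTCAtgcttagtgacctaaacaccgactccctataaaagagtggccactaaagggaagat
Tnxb: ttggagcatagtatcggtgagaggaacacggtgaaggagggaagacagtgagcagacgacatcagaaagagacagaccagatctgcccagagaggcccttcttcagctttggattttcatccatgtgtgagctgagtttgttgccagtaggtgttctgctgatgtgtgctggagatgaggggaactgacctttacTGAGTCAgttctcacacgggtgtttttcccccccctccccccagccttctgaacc
The match ended 198 bases before the start in Ppbp, 52 in Clca3b, 234 and 152 in Cldn4, 6 in Il1a, 57 in Mmp10 and 49 in Tnxb.

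Among the function lists, the one with the largest share of genes above the 6 was that of the desmosomes, the junctions that rivet cells together. Of 12 desmosome genes 9 lay above and 0 below, of 17 hemidesmosome, integrin and laminin genes 11 above and 0 below, and of 19 squamous and hillock genes 13 above and 1 below. Over all genes the shares were 19.8% and 17.1%. Median differences of these lists were 2.58, 1.28 and 2.58 on the log2 scale, against a median of -0.00025 over all genes. The desmosome median was 1.02 over members with at least 10 counts in all 7 libraries and 1.47 against 648T1 and 648T3 alone, and the squamous and hillock median was 0.98 on log2(TPM + 1). Pkp1, the plakophilin of stratified desmosomes, was at 521.4 CPM against 0.343, 2.86 and 19.96, 84.8-fold the mean, and Dsg3, a desmosomal cadherin, was at 10.2 CPM and at most 0.043. Itgb4, the integrin of hemidesmosomes, was at 777.6 CPM against 3.64, 27.1 and 47.7, 32.1-fold the mean. Col17a1, the hemidesmosomal collagen, was at 40.9 CPM against 0, 0.370 and 0.574, and Lama3, a chain of its ligand laminin-332, at 497.3 CPM against 4.14, 28.9 and 93.5. Krt16, a keratin of activated keratinocytes, was at 34.8 CPM against at most 1.07. Of 18 tight junction genes 7 lay above and 1 below. Cldn4, whose upstream sequence is shown above, was at 993.9 CPM against 30.3, 187.3 and 405.3, and Cldn23 was at 29.8 CPM against at most 0.262.

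Surface and calcium-binding genes followed the same direction. Of 23 Ly6, S100 and annexin genes 16 lay above, 11 of them by 2-fold, and 0 below. Anxa8, an annexin of stratified epithelium, was at 686.9 CPM against 1.32, 3.58 and 19.4. Cd44, the hyaluronan receptor, was at 1997 CPM against 105.2, 198.2 and 480.5, 8.56-fold the mean. Both were named for their gap, which was wider for Anxa8. Lypd3, a Ly6-family protein of squamous cells, was at 16.5 CPM against 0.524 to 4.11. Of 17 EMT genes, which change in passage between epithelial and mesenchymal states, 5 lay above and 0 below. These 5 included epithelial genes: Epcam, an epithelial adhesion molecule, was at 754.4 CPM against 34.1, 171.5 and 334.2, and Cdh3, the P-cadherin of basal cells, was at 118.7 CPM against 2.35, 5.21 and 21.1. Tnc, the matrix protein tenascin C, was at 2573 CPM against 32.6, 134.7 and 471.4, opposite in direction to its relative Tnxb. Of 22 collagen and matrix genes 1 lay above and 4 below, among them Eln, the gene of elastin, at 5.40 CPM against 9.98 to 263.

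Proteases and their inhibitors, which remodel matrix and mucus, were also mostly above: 17 of 32 lay above, 15 by 2-fold, and 1 below. Mmp10, the matrix protease stromelysin 2, was at 247.1 CPM against 1.03, 3.75 and 12.4, 49.4-fold the mean. Tmprss11e, a transmembrane serine protease of squamous epithelium, was at 17.3 CPM against at most 0.217, and Serpinb11, of the clade of intracellular serpins, was at 5.09 CPM with 0 counts in all 6. These 3 were named for the widest gaps of their list. The multigene families among them (serpins, claudins, keratins and the cytochrome P450 genes below) hold close relatives, for which the split of shared reads is an estimate.

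Secreted defence proteins held the most abundant of the named genes above. Of 10 antimicrobial genes 6 lay above and 0 below. Ltf, the iron-binding lactoferrin (chr9:111019271-111042767), was at 3556 CPM against 0.377, 3.67 and 62.6, the highest in 648T1. Per length it reached 3839 TPM, above Wfdc2, a protease inhibitor of airway fluid, at 2972 TPM and Scgb3a2 at 2824 TPM. The median TPM of the 6 was 5.015 for Ltf and 1154 for Wfdc2, so Wfdc2 was abundant in the alveolar tumoroids too. Pigr, which carries IgA across the airway wall, was at 281.2 CPM against 0.820, 4.42 and 48.2. Of 10 mucin and goblet genes 3 lay above and 1 below. Gp2, a glycoprotein of secretory and M cells, was at 3.23 CPM with 0 counts in all 6, and Muc4 was at 90.0 CPM against at most 71.5.

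Cytokines and the response genes of NF-kB, a transcription factor of inflammation, lay mostly above. Of 23 chemokine and interleukin genes 14 lay above and 1 below, and of 18 NF-kB response genes 11 above and 2 below. Il1a, an alarm cytokine stored in epithelium, was at 69.0 CPM against 0.245, 0.401 and 1.08, 140-fold the mean. Csf2, which encodes GM-CSF, was at 78.9 CPM against 1.13, 5.06 and 8.88. Tnf was at 30.8 CPM against 0.369, 0.875 and 3.93. All 3 were named for the widest gaps of the chemokine and interleukin list. Tnfaip3, which encodes the NF-kB inhibitor A20, was at 287.7 CPM against 20.5, 29.3 and 40.7, and Ier3, an immediate early gene, was at 809.0 CPM against 202.7 to 387.7. Cd83 went the other way, with 0 counts in 648T2 and 0.082 to 15.3 CPM in the 6; it is also known from dendritic cells. The summed leukocyte markers, at 26.6 CPM, were inside the range of the 6.

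Other immune lists showed less. Of 9 MHC class II genes 0 lay above and 3 below: H2-DMa, a peptide-loading chaperone, was at 6.20 CPM against 12.4, 20.8 and 47.8, while Ciita, the class II transactivator, was at 1.99 CPM, beside a lowest value of 2.01. The median difference of the class II list was -1.28 against the 6 but 0.086 against 648T1 and 648T3 alone. Of 13 MHC class I genes 5 lay above, none by 2-fold, and 0 below, led by the immunoproteasome subunit Psmb10 at 54.6 CPM against 18.1 to 33.0. Of 21 interferon-stimulated genes 1 lay above and 1 below, and of 13 complement genes 1 above and 1 below, both under the shares of all genes.

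**Figure D4:**
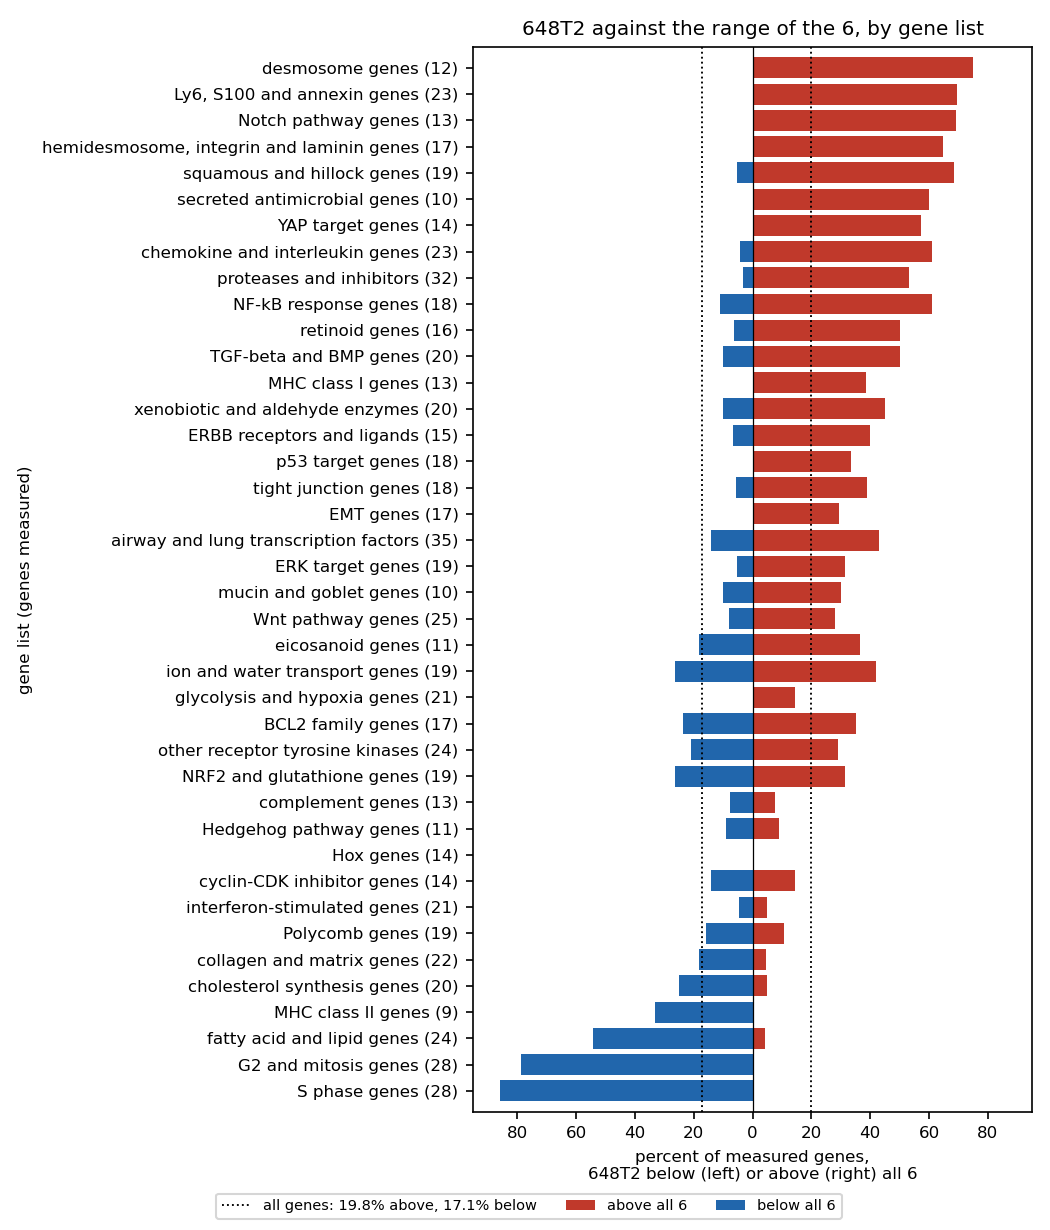
Percent of the measured genes of each function list with 648T2 above all 6 (red, right) or below all 6 (blue, left), with the number of genes measured in parentheses; dotted lines mark the shares of all genes, 19.8% above and 17.1% below. Desmosome genes (9 of 12) head the lists above, and S phase genes (24 of 28) and G2 and mitosis genes (22 of 28) those below.

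Cell cycle genes were lower in 648T2 by small margins. Of 28 S phase genes 24 lay below and 0 above, and of 28 G2 and mitosis genes 22 lay below and 0 above, but in each list 1 gene did so by 2-fold. The median differences were -0.70 and -0.75 on the log2 scale. Mcm10, a replication initiation factor, was at 6.87 CPM against 14.6, 17.2 and 25.7, and Cdc25b, a phosphatase that starts mitosis, was at 22.9 CPM against 52.0, 57.0 and 80.3. Mki67, the gene of the Ki-67 antigen, was at 100.2 CPM and its lowest value among the 6 was 120.4. The direction was thus shared and the gap narrow. Of 14 cyclin-CDK inhibitor genes 2 lay above and 2 below: Cdk6, a G1 kinase, was at 93.0 CPM against 6.71 to 41.6, whereas Cdkn1c, the inhibitor p57, was at 8.02 CPM against 16 to 42.8. Of 18 p53 target genes 6 lay above and 0 below, with Phlda3, an AKT inhibitor, at 201.0 CPM against 4.21, 26.1 and 34.2.

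Fatty acid and lipid genes were the metabolic group below. Of 24 such genes 13 lay below, 4 by 2-fold, and 1 above. Across all genes 17.1% lay below, 3.29% by 2-fold, and 19.8% above. Of 20 cholesterol synthesis genes 5 lay below, nearer the share of all genes, and 1 above. Cd36, the fatty acid transporter, was at 31.1 CPM against 224.4, 550.9 and 1080, 18.8-fold lower than the mean. Dgat2, the last enzyme of triglyceride synthesis, was at 2.57 CPM against 21.3, 40.6 and 54.3. Acoxl, an acyl-CoA oxidase relative, was at 0.664 CPM against 11.5, 30.4 and 205.2. The widest gaps of the fatty acid and lipid list were the reason for naming these 3. Stard4, a cholesterol carrier, was at 32.7 CPM against 69.7 to 133.5, below all 6. Of 21 glycolysis and hypoxia genes 3 lay above and 0 below, below the share of all genes.

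Enzymes that handle retinoids and foreign compounds differed gene by gene. Of 16 retinoid genes 8 lay above and 1 below, and of 20 xenobiotic and aldehyde enzymes 9 lay above and 2 below. Aldh1a3, which makes retinoic acid, was at 107.6 CPM against 0.063, 1.15 and 1.57, 113-fold the mean. Stra6, the retinol receptor, was at 61.1 CPM against 0.147, 0.861 and 15.2. Both were higher in 648T2, in contrast to the retinol dehydrogenase Adh1 above. Cyp2b10, a cytochrome P450, was at 25.9 CPM against 0, 0.114 and 0.303, and Cyp4b1 of the same superfamily was at 45.8 CPM against 0.145, 0.784 and 3.07. Of 19 NRF2 and glutathione genes 6 lay above and 5 below: the glutathione peroxidase Gpx2 was at 407.4 CPM against 7.34 to 111.0, whereas the transferase Gstt1 was at 7.66 CPM against 39 to 121.9. Among 11 eicosanoid genes the prostaglandin synthases went opposite ways, with Ptgs2 at 687.0 CPM against 52.5 to 279.8 and Ptgs1 at 54.7 CPM against 170.9 to 377.3.

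Among 19 ion and water transport genes 8 lay above and 5 below, and their median difference of 0.31 became -0.48 over the members with at least 10 counts in all 7 libraries. Trpv4, an osmosensitive calcium channel, was at 155.5 CPM against 0.968, 3.17 and 10.4. Aqp4, a basolateral water channel, was at 489.7 CPM against 9.89, 37.8 and 73.8. Fxyd3, a regulator of the sodium pump, was at 203.5 CPM against 5.52, 19.8 and 35.1. Each was named for 1 of the 3 widest gaps of this list.

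Among the developmental signalling lists the named genes above the 6 included several ligands. Of 13 Notch pathway genes 9 lay above, 5 by 2-fold, and 0 below, including the ligands Jag1 at 159.0 CPM against 14.8, 35.7 and 59.5 and Jag2 at 172.1 CPM against 6.90, 41.7 and 64.9. Of 14 YAP target genes 8 lay above and 0 below, and Ccn2, a matricellular protein, was at 636.2 CPM against 21.8, 49.3 and 85.8, 11.8-fold the mean. Of 20 TGF-beta and BMP genes 10 lay above and 2 below, among them the ligands Inhba (29.1 CPM against 1.21 to 8.03) and Tgfb2 (148.4 CPM against 14.3 to 51.0). Of 25 Wnt pathway genes 7 lay above and 2 below, where 19.8% and 17.1% of all genes did. The Wnt ligand Wnt10a was at 62.4 CPM against 0, 0.356 and 2.14, and Wnt9a at 19.5 CPM against at most 1.92. The Wnt feedback inhibitor Nkd1 was the reverse, at 4.52 CPM against 97.0, 161.6 and 251.6, 37.7-fold lower than the mean. Of 11 Hedgehog genes 1 lay above and 1 below, and 0 of 14 Hox genes lay outside the range in either direction. Of 35 airway and lung transcription factors 15 lay above and 5 below, with Pax9, a factor of foregut epithelium, at 87.8 CPM against 0.339, 2.88 and 24.2.

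Receptor tyrosine kinases, the family of the transgene, were mixed. For the counts here, the shares of all genes were 19.8% above and 17.1% below. Of 15 ERBB receptor and ligand genes 6 lay above, 1 by 2-fold, and 1 below. Nrg1, the ligand of ERBB3 and ERBB4, was at 102.9 CPM against 0.734, 2.72 and 13.7, 20.6-fold the mean. Mouse Egfr was at 77.1 CPM against 2.52, 19.4 and 55.4, a gap of less than 2-fold to the nearest; how many reads of the human transgene were counted on it was not tested. Of 24 other receptor tyrosine kinases 7 lay above and 5 below, with Mst1r, the receptor RON, at 38.8 CPM against 0.484 to 7.22, and Mertk, a receptor for apoptotic cells, at 1.02 CPM against 5.13 to 15.9. Of 19 ERK target genes, a readout of the pathway below EGFR, 6 lay above and 1 below, none by 2-fold, and the list's median difference was 0.17 against the 6 and -0.04 against 648T1 and 648T3 alone.

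Genes that bear on drugs the study used were read as well. Of 17 BCL2 family genes 6 lay above, 4 by 2-fold, and 4 below, against 19.8%, 4.53% and 17.1% of all genes. Bcl2, the survival gene and target of venetoclax, was at 31.7 CPM against 5.21, 6.97 and 11.3, 4.01-fold the mean. The pro-death members Bik and Pmaip1 were higher too, Bik at 14.2 CPM against 0.087 to 0.690 and Pmaip1 at 91.2 CPM against 0.563 to 5.32. Genes of opposite function thus moved the same way. Ezh2, the Polycomb methyltransferase, was at 46.5 CPM, inside the range of 45.3 to 90.2, and of 19 Polycomb genes 2 lay above and 3 below.

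The genes at the threshold show how gradual it was. Tns3, a focal adhesion protein, just reached the 2-fold gap at 237.0 CPM against a highest value of 118.4, and Ephb2, an ephrin receptor, just missed it at 139.4 against 69.7. Below, Veph1 just reached it at 1.28 CPM against a lowest value of 2.66, and Ticrr, a replication factor, just missed it at 5.05 against 10.2. Many of the members were low in level: the 800 had a median of 12.8 TPM in 648T2 and 0.720 in the 6, and the 582 a median of 0.375 TPM in 648T2 and 3.67 in the 6. In 89 of the 800 every 1 of the 6 held 3 counts or fewer, and in 194 of the 582 648T2 did, which is at or under the floor.

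The members were spread over the genome, though unevenly. The share of genes above ran from 12.8% on chromosome 17 to 27.48% on chromosome 1, against 19.8% of all genes. The share below ran from 8.352% on chromosome 18 to 23.19% on chromosome 15, against 17.1%. On chromosome 1, 83 of 1110 genes lay above by 2-fold, against 4.53% of all genes. By chromosome the median difference ran from -0.17 on chromosome 15 to 0.17 on chromosome 1. The 6 themselves, each against the other 5, ran from -0.45 to 0.43. The nearest of the 6 for the 800 genes above was 648T3 in 182, 655T2 in 175 and 648T1 in 162, and for the 582 below it was 655T2 in 178 and 648T1 in 129.

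The tumoroid of an autochthonous tumor, induced in the lung itself by Adeno-Cre and sequenced on the same platform, gave a further library that the rule had not used, although 648T2 itself, whose values chose the genes, is on the other side. It lay at least 2-fold below 648T2 for 766 of the 800 genes (95.75%) and at least 2-fold above it for 541 of the 582 (92.96%), against 15.41% and 19.09% of all genes. As these shares reuse the values of 648T2, they are a description only. It has the same EGFR transgene and no BASC or AT2 sorting.

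A further comparison used none of these libraries, although its cultures may be related to the tumoroids by descent. BASC organoids before transplantation had been picked into a bronchiolar and an alveolar culture, 1 library each, sequenced on another platform and so compared with each other alone. Of the 800 genes, 744 (93.0%) were higher in the bronchiolar organoid and 616 (77.0%) by at least 2-fold, with a median difference of 2.10. Over all genes 49.62% were higher and 11.6% by 2-fold. Of the 582 genes, 516 (88.66%) were lower and 417 (71.65%) by 2-fold, with a median of -1.91, against 49.61% and 15.7% of all genes. With 1 library per side these are descriptions of 2 cultures. The bronchiolar tumoroid is labelled as coming from bronchiolar BASC organoids, and the paper transplanted Adeno-Cre organoids of this type. The bronchiolar organoid library is thus the same type of culture, and no label says whether it was the parent. The shares above therefore cannot count as separate support, and how much of them reflects shared descent was not tested. Olfm4 (8.14), Aldh1a3 (8.04), Ppbp (7.94), Il1a (5.46), Pkp1 (4.63) and Itgb4 (4.50) were among the genes with large log2 differences upward in the organoids, and Tnxb (-8.48), Nkd1 (-7.17) and Cd36 (-4.75) among those downward.

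Some lists differed in sign or in size between tumoroid and organoid. The S phase list, at a median of -0.70 in the tumoroids, was at 0.46 in the organoids, and the G2 and mitosis list was at -0.005. The MHC class I list was at 0.43 and -0.79, the TGF-beta and BMP list at 0.77 and -0.19, and the xenobiotic list at 0.46 and -0.52. Others that changed sign included ion and water transport (0.31 and -0.92), EMT (0.49 and -0.60), Wnt (0.28 and -0.37) and BCL2 family genes (0.44 and -0.17). Cyp2b10, at 25.9 CPM in 648T2 and at most 0.303 in the 6, was nearly equal in the organoids, with a log2 difference of -0.04. The tumoroid and organoid differences in these lists were not tested against each other.

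**Figure D5:**
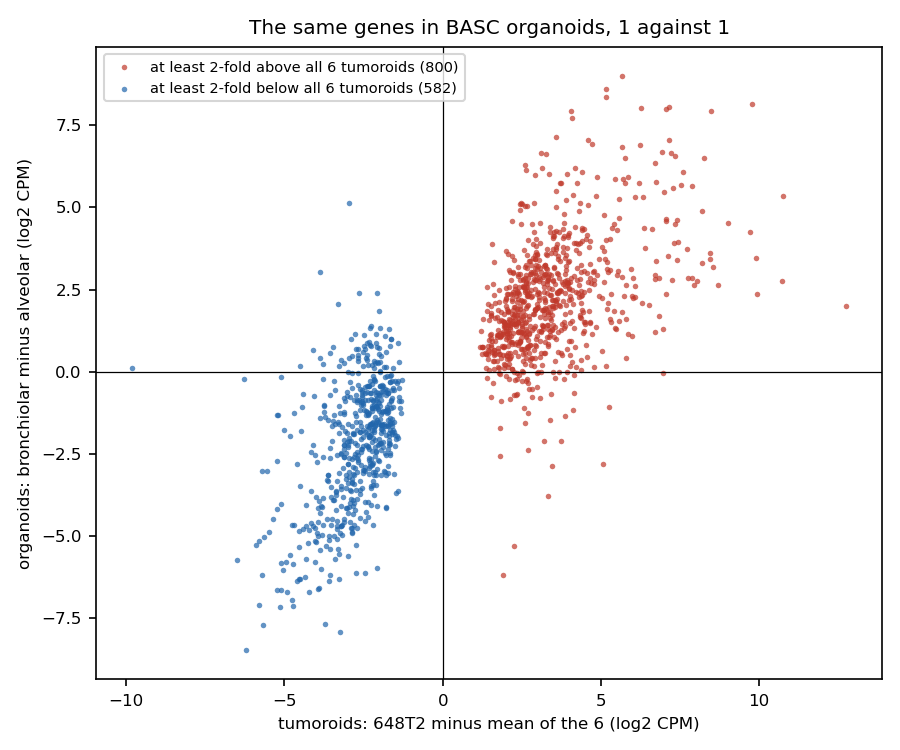
Log2 difference of bronchiolar minus alveolar BASC organoid (vertical, 1 library each) against the log2 difference of 648T2 minus the mean of the 6 tumoroids (horizontal), for the 800 genes at least 2-fold above all 6 (red) and the 582 at least 2-fold below (blue). Most red points lie above 0 on the vertical axis (744 of 800) and most blue points below it (516 of 582).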

How the data were processed

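The mouse tumoroid and organoid RNA was sequenced with the tumoroids on DNBSEQ and the organoids on HiSeq. According to the labels and methods, the authors trimmed reads with Trimmomatic 0.39, aligned them with STAR 2.6.1d and quantified GRCm38 transcripts with RSEM 1.3.2. The deposited tables hold expected counts, which RSEM estimates and which split shared reads among genes, and TPM. Expected counts were rounded, filtered with edgeR 4.0.16 (filterByExpr, smallest group of 1), scaled by TMM (R 4.3.3) and put on log2 CPM with a prior count of 2, and TPM was used to compare levels between genes. Library totals were 15327265 to 23209041, and 3 counts corresponded to 0.123 to 0.188 CPM. Floors and ranges cover these libraries only.

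Tumoroid groups came from the labels' tissue origin. The AT2 tumoroids also carry a sorting label for NGFR, by which the paper sorted tracheal cells, while it sorted AT2 cells by Sca1. Which of these labels holds was not tested. The difference is log2 CPM of 648T2 minus the mean of the 6, and the gap is the distance to the nearest of the 6. The comparison itself carries no test, edgeR's test of 1 tumoroid against 6 being an alternative, and nothing says that the tumoroids came from separate animals. The organoid pair and the autochthonous tumoroid were set beside the contrast, each without replicates. Organoids of other cell types were not used. Values of a few named genes are not reported here. Named genes are the 4 markers, the 15 protein-coding genes with the widest gap in each direction outside the lineage, support and sex lists and at 10 CPM or more on the higher side, the 3 members with the widest gap in each function list, the 2 with the largest difference in each other list, and Egfr, Bcl2 and Ezh2. A few list members outside this rule are named with their values (Sftpb, Tppp3 and Mki67), as are the genes at the threshold. The members and lists were chosen with earlier results of these data known. The step that ranks genes was tested on simulated data. Alternatives were DESeq2 1.42.0 size factors, upper-quartile factors, library totals, a prior count of 0.5, log2(TPM + 1), other filters, other reference sets and edgeR's quasi-likelihood test. Figures were drawn with matplotlib 3.10.9.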

Additional observations from a re-analysis of the deposited data

Results flagged for a closer look

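Among the 163 named genes, those below had 1 of the 6 alveolar tumoroids standing apart from the other 5, with a gap to its nearest neighbour over the range of the 6 above Dixon's 95% critical value for 6 samples. Such a tumoroid was found in 13 of the 163 genes, not all of them reported here, and chance gives about 1 in 20 groups. Which of them exceed chance was not tested. In each gene below, 648T2 lay outside the range of the 6, outlier included, as the rule required of most named genes. The outlier lay on the side away from 648T2 for Igf2, at 3.59 CPM in 648T2, and for Jag2, Gpx2, Gsta4, Alox12, Kdm5d and Ddx3y. For Igf2 648T2 lay below the 6, and for the others above them.

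Above the rest stood 648T1 for Scgb3a2 (0.451 CPM, ratio 0.782) and 646T1 for Pglyrp3 (0.0873 CPM, ratio 1.0) and Igf2 (512.4 CPM, ratio 0.663). So did 648T3 for Tff2 (1.34 CPM, ratio 0.657), Il1a (1.08 CPM, ratio 0.636) and Tmprss11e (0.217 CPM, ratio 0.649). The value of Pglyrp3 rests on 3 counts or fewer in that library.

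Below the rest stood 655T2 for Jag2 (6.90 CPM, ratio 0.722), Gpx2 (7.34 CPM, ratio 0.66) and Gsta4 (59.7 CPM, ratio 0.782), and 654T1 for Alox12 (0 CPM, ratio 0.747). Tumoroid 655T1 was lowest for the Y-linked genes Kdm5d (0.0484 CPM, ratio 0.653) and Ddx3y (0.290 CPM, ratio 0.699), whose medians over the 6 were 12.9 and 30.0 CPM and which were at 23.5 and 49.7 CPM in 648T2.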

How the results depend on the processing

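Of the 159 named genes outside the range, 154 to 159 stayed outside on the same side under each alternative that measured them all, and 98 of the 100 measured did with at least 10 counts in all 7 libraries. None crossed to the other side in any of these, and no difference of a named gene changed sign among 2711 alternative values, although 119 moved by more than the spread of the 6. The counts moved more. Against the 648-numbered mixed tumoroids alone, 6305 genes lay above and 6202 below, 1250 and 1450 by 2-fold, as a range of 2 tumoroids is narrower. Against the mixed BASC-derived tumoroids, 4938 lay below, 1095 by 2-fold. With at least 10 counts in all 7, the 2-fold counts were 330 above and 337 below, of fewer genes measured, and with log2(TPM + 1) 261 lay below by 2-fold. Leaving out each of the 6 in turn gave 3656 to 4083 above, 3287 to 3792 below, and 836 to 935 and 623 to 800 by 2-fold, the highest without 655T2. The share of outside genes that lay above, 53.7%, was 47.28% with upper-quartile factors, 48.45% with library totals, 45.42% with TPM and 60.04% with no filter. Of the 800 and 582 genes, 754 and 561 kept a 2-fold gap with library totals, and 536 and 238 with TPM. Adding the autochthonous tumoroid to the reference left 766 and 541. The quasi-likelihood test of edgeR, which takes the spread from the 6 and assumes that 648T2 would vary like them, called 145 genes above and 15 below at an adjusted p under 0.05.

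Medians of 13 lists changed sign under some alternative. ERK target genes went to -0.03842 and MHC class II genes to 0.08649 against the 648-numbered tumoroids, and ion and water transport genes to -0.4845 with at least 10 counts in all 7. The other 10 were the fibroblast, smooth muscle, mucin and goblet, complement, interferon-stimulated, Polycomb, cyclin-CDK inhibitor, Hedgehog, glycolysis and NRF2 lists, whose median against the 6 was 0.33 or less in size. Against the 648-numbered tumoroids the medians were also 1.935 (squamous and hillock), 1.465 (desmosome) and 1.129 (YAP targets). Against the mixed BASC-derived they were 1.657 (desmosome), 0.09708 (Wnt) and 1.651 (proteases and inhibitors), and against the AT2-derived 2.918 (squamous and hillock) and 1.587 (hemidesmosome). With log2(TPM + 1) they were 3.822 (basal), -0.5536 (endothelial), 0.9764 (squamous and hillock), 1.757 (desmosome), 1.026 (antimicrobial), -0.1154 (Polycomb), -0.1455 (cyclin-CDK inhibitors) and 1.297 (proteases). With no filter they were 0.08358 (ciliated), -0.6145 (endothelial), 1.674 (squamous and hillock) and 1.529 (proteases). With at least 10 counts in all 7 they were 3.266 (basal), -2.798 (neuroendocrine), 1.813 (squamous and hillock), 1.02 (desmosome) and 1.243 (proteases). Leaving out each of the 6 gave 1.2 to 1.624 (hemidesmosome), 0.4452 to 0.6953 (ERBB) and 1.563 to 2.181 (proteases). The cause of these shifts was not tested. The other 834 list medians and all 140 chromosome medians moved by less than the spread of the 6. TGANTCA stood in 13% of the genes above, 6.92% below and 5.41% of all where the RefSeq start lay within 500 bases of the annotated 5′ end, a setting chosen after seeing the data. No paired analysis was possible because 648T2 is alone in its group and shares only the number 648 with the reference, which gives fewer than the 2 pairs a block needs.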

Other observations

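Some genes at least 2-fold outside the range differed by 2-fold the other way between the organoids, fewer than the shares of all genes. The protein-coding examples named here were chosen after their values were seen. Against 15.67% of all genes, 17 of the 800 genes above (2.12%) were lower by 2-fold in the bronchiolar organoid. Among them Tbx2, a T-box factor, was at 15.2 CPM in 648T2 and at most 7.20 CPM in the 6, with an organoid difference of -2.12, and Agtr2, an angiotensin receptor, was at 5.80 CPM against at most 0.742, with an organoid difference of -1.36. Against 11.64% of all genes, 15 of the 582 genes below (2.58%) were higher by 2-fold in the bronchiolar organoid. Among them Amot, which binds YAP, was at 1.99 CPM against 11.8 to 38.4, with an organoid difference of 2.05, and Eomes, a T-box factor, was at 5.58 CPM against 13 to 81.3, with an organoid difference of 2.38.

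The processed pseudogene Gm5537 on chromosome 3 had 0 CPM in 648T2 and 52.2 to 118.0 CPM in each of the 6, while the organoids differed by 0.12 on the log2 scale. It was chosen after its values were seen, and its reads may be shared with its parent gene.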
